A study of Mus musculus with 6 samples.

Results

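Fatty acid oxidation and the tricarboxylic acid (TCA) cycle were followed through 39 genes in fetal mouse hearts. The genes were chosen by name for their place in the pathway, and all 39 were found by symbol among the 35458 genes with annotated transcripts. All 39 passed the filter on low counts, among 13930 genes tested. They comprise 3 regulators, 5 genes of fatty acid uptake and activation, 4 of the carnitine shuttle, 14 of mitochondrial beta-oxidation and 13 of the TCA cycle.

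Hearts of 2 groups were compared. The nano-TiO2 group came from FVB/NJ wild-type dams that inhaled an aerosol of engineered titanium dioxide nanoparticles at a target of 12 mg/m3, for 360 minutes a day on 6 non-consecutive days over 8 days from gestational day 5. The sham group came from dams of the same strain and age (10 weeks) kept in filtered room air. Fetal hearts were taken on gestational day 15 and pooled, with 3 pools and 3 libraries per group. The libraries are the inputs of an RNA methylation (m6A) immunoprecipitation experiment: fragmented total RNA sequenced without antibody, so they measure transcript abundance. The number of fetuses and litters behind a pool is not stated, so every p-value measures only the spread between these pools. The exposure reached the dam, and no value in the files measures particles in the fetus.

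Heart muscle takes up fatty acids from circulating triglyceride with the help of lipoprotein lipase, binds and activates them to acyl-CoA, and carries them into mitochondria as carnitine esters. Each turn of beta-oxidation then shortens the chain through a dehydrogenase, a hydratase, a second dehydrogenase and a thiolase, and hands electrons to electron transfer flavoprotein. The acetyl-CoA made enters the TCA cycle at citrate synthase. The fetal heart relies mostly on glucose and lactate, and fatty acid oxidation becomes its main fuel after birth. Carnitine palmitoyltransferase 1 has a muscle isoform (Cpt1b) and a liver isoform (Cpt1a).

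The libraries held between 12881945 and 22720009 estimated reads. No pair of libraries within a group agreed within sampling noise, so each was counted as a separate sample. Marker genes of heart muscle, 8 in all, summed to 33189 to 38471 TPM (Salmon's level per transcript length) in nano-TiO2 libraries and to 26531 to 31256 TPM in sham libraries. Red cell markers, mostly globins, summed to 126423 to 203800 TPM in nano-TiO2 libraries and to 187393 to 369886 TPM in sham libraries. By edgeR 6 of the 11 red cell markers were lower. Lung epithelium markers summed to 2644 TPM in nano-TiO2 3 and 649.5 TPM in nano-TiO2 2, and to at most 205 TPM in the other libraries. Hepatocyte markers summed to 727 TPM in sham 2 and to at most 61.9 TPM in the other libraries. Of 15 endothelial, fibroblast and skeletal muscle markers tested, 1 (a fibroblast marker) was past the threshold. Of 5 brown fat markers, Ucp1 was at 0 in all 6 libraries and Cidea ran from 11.2 to 19.4 TPM. All 5 summed to 13.0 to 19.6 TPM in nano-TiO2 libraries and to 11.4 to 17.6 TPM in sham libraries. In pooled tissue, fewer cells of a type and less RNA per cell cannot be told apart.

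Across the 39 genes, 1 was higher and 6 were lower in nano-TiO2 hearts at an adjusted p under 0.05 by edgeR, and 32 were not past the threshold. The gene that rose was Lpl, and those that fell were Cpt1b, Cpt2, Acads, Etfb, Idh2 and Mdh2. Of all genes tested, 15.5% were higher and 12.8% were lower, so 6 of 39 lower is near that background and 1 of 39 higher is below it. The median log2 fold change of the 39 genes was -0.20, against -0.01 over all genes tested, with 27 below 0 and 12 above. In 15 genes every nano-TiO2 library lay below every sham library, and in 2 (Lpl and Cpt1a) every one lay above; over all genes such separation was found in 22.4% and 23.3%. The remaining 22 genes overlapped between groups. DESeq2 called 2 higher (Lpl and Cpt1a) and 7 lower (the same 6 and Ogdh), against 17.8% and 16.5% of all genes. The direction depended on the scaling. With library totals alone, 9 of the 39 were higher and 0 lower by edgeR (0 lower at an unadjusted p under 0.05), against 30.7% and 0.359% of all genes, and the median of all genes stood at 0.41. On that scale Cpt1b, Cpt2, Acads, Etfb, Idh2 and Mdh2 were between -0.20 and 0.04.

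**Figure D1:**
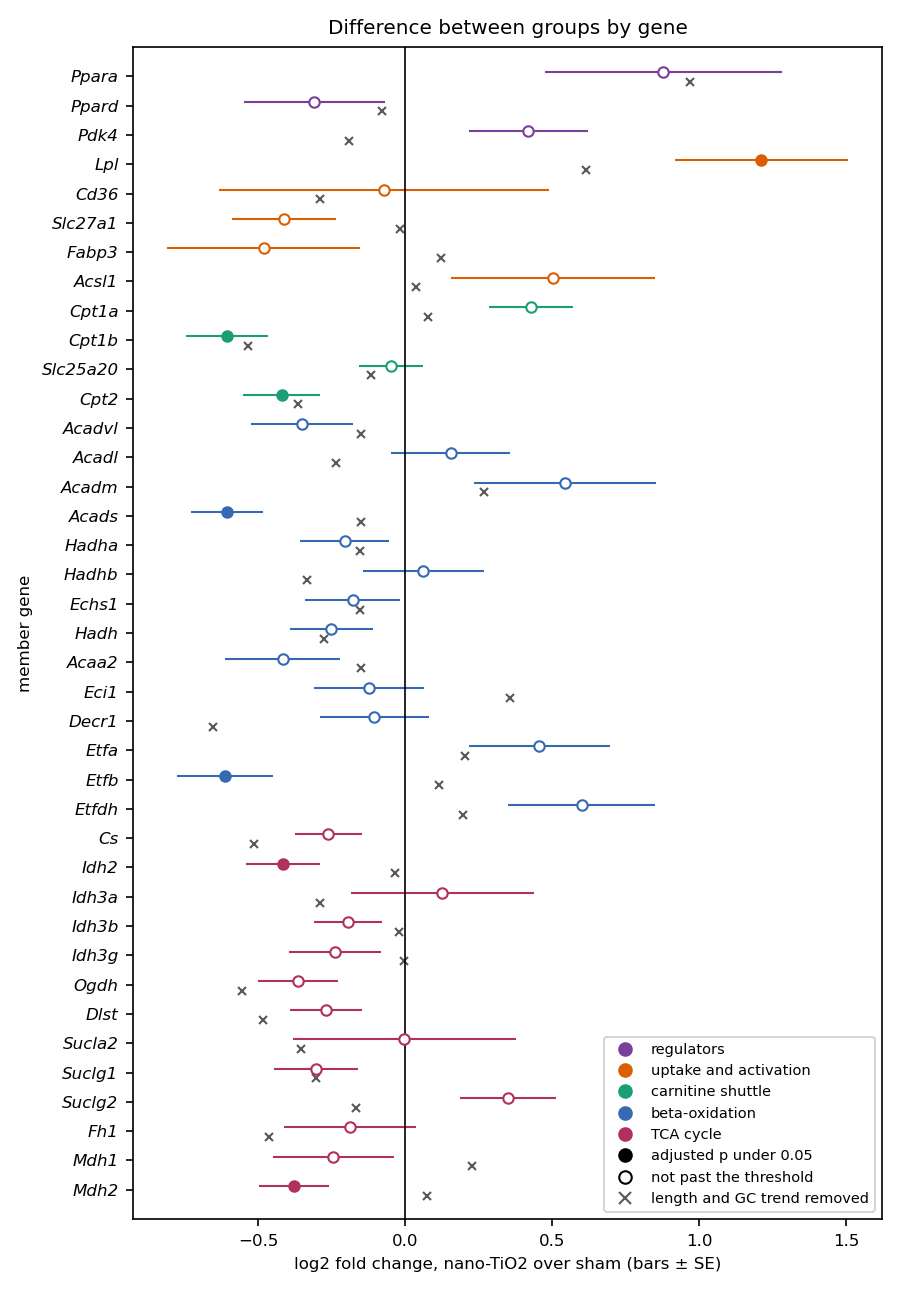
Log2 fold change of each gene, nano-TiO2 over sham, with the standard error as a bar, grouped by role from regulators at the top to the TCA cycle at the bottom. Filled circles are the 7 genes past an adjusted p under 0.05 by edgeR, and grey crosses are the fold changes after the correction for transcript length and GC content, where Etfb, Idh2 and Mdh2 lie near 0 and Cpt1b and Cpt2 lie close to their circles.

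Fold changes ran with transcript GC content and with transcript length. Over all 13930 genes, the log2 fold change fell with the GC content of the transcript (Pearson's r -0.46, Spearman's rho -0.55). Among the 39 genes it fell with GC content too (r -0.55, rho -0.73). With transcript length it rose, over all genes (r 0.48 on log2 length, rho 0.52) and among the 39 (r 0.37, rho 0.31). Genes are not independent replicates here. All 10 genes with a GC content of 53% or more were below 0, with a median of -0.41, against -0.37 for all tested genes in that range; they include 5 of the 6 that fell. The 12 genes under 48% GC had a median of 0.14, against 0.50 for all genes in that range, and the 17 between had -0.24, against 0.12. A correction was therefore made that took out, library by library, the smooth dependence of read number on length and GC content. After this correction none of the 7 calls was kept. The log2 fold changes of Cpt1b and Cpt2 were then -0.54 and -0.37, close to the -0.61 and -0.42 before it. Lpl was at 0.62 and Acads at -0.15, and Etfb, Idh2 and Mdh2 lay between -0.04 and 0.12. By edgeR 0 of 39 were then higher (1 at an unadjusted p under 0.05) and 1 was lower (8 at an unadjusted p under 0.05), against 1.46% and 1.69% of all genes. The 1 lower gene was Decr1, the dienoyl-CoA reductase needed for polyunsaturated chains, at -0.66 (adjusted p = 0.0376 by edgeR). Whether the dependence arose in the tissue or in library preparation was not tested.

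**Figure D2:**
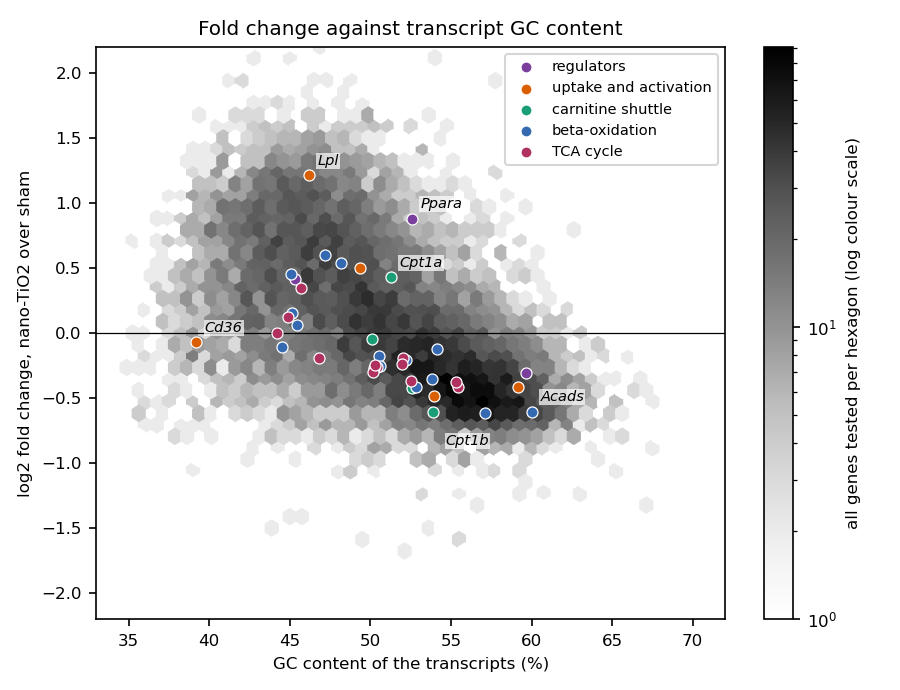
Log2 fold change, nano-TiO2 over sham, against the GC content of each gene's transcripts in percent. Hexagons count all genes tested and coloured points are the 39 genes by role; the 10 points at 53% GC or more all lie below 0, and Lpl and Ppara lie highest.

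The 3 regulators did not pass the test in either direction by edgeR, with 0 of 3 at an unadjusted p under 0.05, and DESeq2 called none of them, with 1 at an unadjusted p under 0.05. Ppara, the fatty-acid-activated nuclear receptor that switches on oxidation genes in heart and liver, had 22.6, 7.50 and 16.9 CPM (counts scaled by TMM to a common library size) in nano-TiO2 libraries, against 6.52, 6.81 and 12.2 CPM in sham libraries. Nano-TiO2 1 and 3 lay above all sham libraries and nano-TiO2 2 lay among them. The log2 fold change was 0.88 ± 0.40 (SE; adjusted p = 0.134 by edgeR), and it was 0.97 after the correction. Pdk4, the kinase that switches off pyruvate dehydrogenase when fat is burnt, averaged 17.7 ± 2.22 CPM in nano-TiO2 and 13.2 ± 2.90 CPM in sham libraries (SD, n = 3 each). Its log2 fold change was 0.42. After the correction Pdk4 stood at -0.19. Ppard, the related receptor found in most tissues, was a low transcript at 5.97 ± 0.76 CPM in nano-TiO2 and 7.44 ± 1.86 CPM in sham libraries (SD, n = 3 each).

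Uptake and activation held the 1 gene that rose. Lpl, the lipase that frees fatty acids from circulating lipoproteins, had 278, 124 and 229.7 CPM in nano-TiO2 libraries, against 71.6, 86.3 and 115 CPM in sham libraries. All nano-TiO2 libraries were above all sham libraries, though nano-TiO2 2 lay close to sham 3. The log2 fold change was 1.21 ± 0.29 (SE; adjusted p = 0.0207 by edgeR) and 1.20 in the series table (adjusted p = 0.0176 by limma). After correction for transcript length and GC it was 0.62 (adjusted p = 0.205 by edgeR). Leaving out any 1 of sham 1, sham 2, nano-TiO2 1 and nano-TiO2 3 also ended the call, with adjusted p up to 0.0695 by edgeR. In those fits 5.97% to 10.2% of all genes were higher, against 15.5% with all libraries. Lung epithelium markers summed to 21.6, 649.5 and 2644 TPM in these nano-TiO2 libraries, against 205, 32.3 and 27.8 TPM in the sham libraries, and their part in the Lpl result was not tested. Of Lpl reads, 22.4% went to transcripts not annotated as protein-coding, chiefly one marked for nonsense-mediated decay.

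The other 4 uptake genes were not past the threshold. Cd36, the fatty acid translocase of the cell surface, had 232, 76.5 and 156 CPM in nano-TiO2 libraries, against 87.7, 115 and 287 CPM in sham libraries. The groups overlapped, with the lowest value in nano-TiO2 2 and the highest in sham 3, and the log2 fold change was -0.07 ± 0.56 (SE). Fabp3, the fatty acid binding protein of muscle and the most abundant of the 39 per length by Salmon TPM, averaged 2516 ± 665 TPM in nano-TiO2 and 2282 ± 918 TPM in sham libraries (SD, n = 3 each). Its log2 fold change in CPM was -0.48, and 0.12 after the correction. Acsl1, the main long-chain acyl-CoA synthetase of heart, averaged 95.4 ± 39.2 CPM in nano-TiO2 and 67.4 ± 23.3 CPM in sham libraries (SD, n = 3 each). Slc27a1, a fatty acid transport protein, averaged 11.7 ± 1.15 CPM in nano-TiO2 and 15.6 ± 2.06 CPM in sham libraries (SD, n = 3 each), without overlap, at a log2 fold change of -0.41 (adjusted p = 0.114 by edgeR). Retained-intron and other transcripts without a coding annotation took 38.8% of Slc27a1 reads.

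The carnitine shuttle showed the least spread within groups of the 5 roles: the wider of the 2 within-group ranges had a median of 0.28 on the log2 scale, against 0.38 for TCA genes, 0.55 for beta-oxidation, 0.59 for regulators and 1.16 for uptake. Cpt1b, the muscle isoform of the enzyme that commits long-chain fatty acids to oxidation, had 499, 483 and 448 CPM in nano-TiO2 libraries, against 719, 618 and 841 CPM in sham libraries. The groups did not overlap, and each nano-TiO2 library lay below the lowest sham library, sham 2. Cpt1b fell by 0.61 on the log2 scale (SE 0.14; adjusted p = 0.0174 by edgeR), by 0.55 in the series table (adjusted p = 0.0229 by limma) and by 0.54 after the correction (adjusted p = 0.0992 by edgeR). Without sham 1, nano-TiO2 1 or nano-TiO2 3 the call was lost, with adjusted p up to 0.07 by edgeR. In those fits 3.04% to 3.92% of all genes were lower, against 12.8% with all libraries. Cpt1b shares 2744 exon bases with the same-strand gene Gm44502, which had at most 40.2 estimated reads in any library.

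Cpt1a, the liver isoform, lay on the other side of 0. It had 34.3, 33.6 and 30.8 CPM in nano-TiO2 libraries, against 26.3, 22.1 and 24.9 CPM in sham libraries. Again the groups did not overlap, here with nano-TiO2 above sham. The log2 fold change of 0.43 ± 0.14 (SE) just missed the threshold by edgeR (adjusted p = 0.0546), and passed it in the series table (0.49, adjusted p = 0.0375 by limma) and by DESeq2 (adjusted p = 0.0323). After the correction it was 0.08. The part of the hepatocyte marker RNA of sham 2 in the Cpt1a values was not tested.

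Both isoforms can be read against each other within a library, which takes out library scaling. Cpt1b made up 95.80%, 95.79% and 95.79% of Cpt1a plus Cpt1b TPM in nano-TiO2 libraries, against 97.72%, 97.79% and 98.12% in sham libraries. Every nano-TiO2 pool lay below every sham pool, and the SD was 0.0075 points in nano-TiO2 and 0.216 points in sham libraries. Cpt1a had 3188 estimated reads over the 6 libraries, so agreement as close as that of the nano-TiO2 libraries is finer than read counting resolves. The means differed by -2.08 points (exact permutation test, two-sided, p = 0.1, the smallest that 3 against 3 allows). Per length, Cpt1b exceeded Cpt1a by 22.8, 22.8 and 22.7 times in nano-TiO2 libraries, against 42.8, 44.2 and 52.3 times in sham libraries. Reads of the series table gave ratios of 14.5, 14.7 and 14.7 in nano-TiO2 libraries, against 27.5, 28.7 and 34.0 in sham libraries. The difference between the log2 fold changes of Cpt1b and Cpt1a was -1.04 in the main fit, -1.03 in the series table and -0.61 after the correction. Their transcripts differ in both properties, with a mean length of 2882 bases and 53.9% GC for Cpt1b and 4276 bases and 51.3% GC for Cpt1a.

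**Figure D3:**
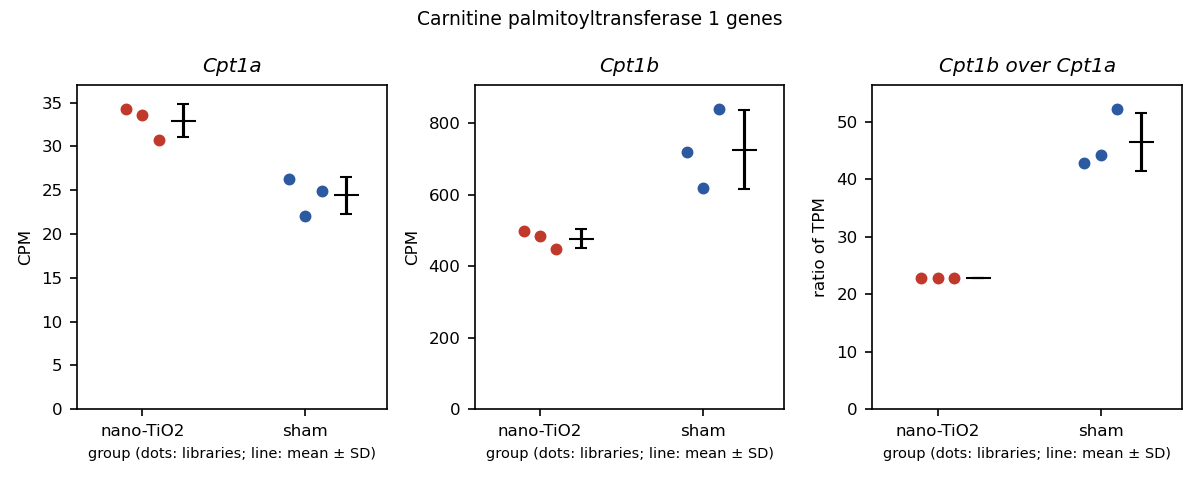
Cpt1a and Cpt1b in CPM, and the ratio of their TPM, in the 3 nano-TiO2 and 3 sham libraries; dots are libraries and the line is the mean with its SD. Cpt1a is higher and Cpt1b lower in nano-TiO2 hearts, and the ratio is 22.7 to 22.8 there against 42.8 to 52.3 in sham hearts.

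Beyond the first step, Cpt2, the inner-membrane enzyme that rebuilds acyl-CoA, had 56.6, 60.3 and 53.6 CPM in nano-TiO2 libraries, against 77.5, 67.0 and 83.7 CPM in sham libraries. No nano-TiO2 library reached the lowest sham library. Cpt2 fell by 0.42 on the log2 scale (SE 0.13; adjusted p = 0.0439 by edgeR), and by 0.37 after the correction (adjusted p = 0.14 by edgeR). The series table gave adjusted p = 0.0789 by limma. The call was lost in 5 of 6 fits that left out 1 library, all but the fit without nano-TiO2 2 (adjusted p up to 0.179 by edgeR). In those 5 fits 2.93% to 8.0% of all genes were lower, against 12.8% with all libraries. Slc25a20, the carrier that exchanges acylcarnitine for carnitine, was the steadiest gene of the shuttle, at 73.5 ± 2.04 CPM in nano-TiO2 and 76.0 ± 2.80 CPM in sham libraries (SD, n = 3 each). Its log2 fold change was -0.05 ± 0.11 (SE).

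The promoter windows of Cpt1a and Cpt2 are shown because the log2 fold changes of these genes lay on opposite sides of 0, from 250 bases before to 50 bases after the RefSeq start on build GRCm38.p6. Capitals mark matches on either strand to the GC box GGGCGG (3 in Cpt1a, 3 in Cpt2) and, in Cpt2 alone, to the ETS letters CCGGAAG (2). The Cpt1a window is chr19:3323051-3323350, plus strand, and the Cpt2 window chr4:107923540-107923839, minus strand.
Cpt1a: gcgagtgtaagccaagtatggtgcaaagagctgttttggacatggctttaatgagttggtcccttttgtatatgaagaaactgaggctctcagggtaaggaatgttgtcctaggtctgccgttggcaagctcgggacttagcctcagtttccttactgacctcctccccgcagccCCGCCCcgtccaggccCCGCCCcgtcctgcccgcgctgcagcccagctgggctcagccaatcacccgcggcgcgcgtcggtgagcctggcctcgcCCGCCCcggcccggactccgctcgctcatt
Cpt2: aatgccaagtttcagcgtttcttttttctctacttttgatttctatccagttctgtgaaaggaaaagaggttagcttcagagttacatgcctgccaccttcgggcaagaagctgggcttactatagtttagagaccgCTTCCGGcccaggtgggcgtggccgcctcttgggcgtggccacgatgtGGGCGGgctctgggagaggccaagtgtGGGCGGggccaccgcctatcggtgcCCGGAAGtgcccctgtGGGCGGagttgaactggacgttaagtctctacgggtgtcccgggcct
Windows were held for 34 of the 39 genes, 42 windows in all. A GC box was found in 71.4% of them, against 35.7% of all 32851 windows, and the ETS letters in 11.9%, against 8.86%. The windows of these genes were also richer in GC, with a median of 60.7%, against 52.7%. The ERR half-site TCAAGGTCA and the receptor element AGGTCANAGGTCA were matched in 0 of the 42 windows; they occur in 0.423% and 0.0396% of all windows. The GC box was searched after the sequences had been seen, and a match is a run of letters and not a bound site.

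In beta-oxidation 2 of 14 genes fell, none rose by edgeR, and 1 was higher at an unadjusted p under 0.05; DESeq2 also called none higher. Of all genes 12.8% were lower, so 2 of 14 is near that background. The median log2 fold change was -0.15. Acads, the dehydrogenase for short chains, had 211, 199 and 211 CPM in nano-TiO2 libraries, against 287, 302 and 357 CPM in sham libraries. There was a wide gap between the highest nano-TiO2 and the lowest sham library. Acads fell by 0.61 on the log2 scale (SE 0.12; adjusted p = 0.012 by edgeR) and by 0.55 in the series table (adjusted p = 0.0147 by limma). Of the 7 called genes it was the one whose call held in all 6 fits that left out 1 library (adjusted p 0.0182 to 0.0476 by edgeR). It also has the highest transcript GC of the 39 genes, and after the correction its log2 fold change was -0.15 (adjusted p = 0.651 by edgeR).

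The other acyl-CoA dehydrogenases were not past the threshold. Acadm, which handles medium chains, had 361, 163 and 284 CPM in nano-TiO2 libraries, against 152, 149 and 254 CPM in sham libraries. Nano-TiO2 1 and 3 lay above the sham range and nano-TiO2 2 fell inside it. The log2 fold change was 0.54 ± 0.31 (SE; adjusted p = 0.219 by edgeR). Acadvl, for very long chains, averaged 364 ± 55.7 CPM in nano-TiO2 and 464 ± 89.9 CPM in sham libraries, and Acadl, for long chains, 589.9 ± 154 CPM in nano-TiO2 and 529.9 ± 68.1 CPM in sham libraries (SD, n = 3 each). Acadvl shares 1151 exon bases with Dvl2 on the opposite strand, and the strand setting of the counts is not given. Acadm over Acads, a ratio within each library, was 1.46, 0.725 and 1.13 by TPM in nano-TiO2 libraries, against 0.460, 0.440 and 0.636 in sham libraries. It was higher in every nano-TiO2 library, by a log2 difference of 1.15 in the main fit and 0.42 after the correction; the pair was picked after its values were seen and carries no test.

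Trifunctional protein, which carries out the last 3 steps on long chains, is built from Hadha and Hadhb. Hadha had 391, 299 and 406 CPM in nano-TiO2 libraries, against 379, 417 and 469 CPM in sham libraries. The groups overlapped, and the log2 fold change was -0.21 ± 0.15 (SE; adjusted p = 0.335 by edgeR). Hadhb had 494, 323 and 429 CPM in nano-TiO2 libraries, against 349, 337 and 508 CPM in sham libraries, at a log2 fold change of 0.06. Salmon put 74.0% of Hadha reads on transcripts not annotated as protein-coding, chiefly one annotated as a processed transcript, so the sum over transcripts was used here. The 2 genes start back to back, and their promoter windows, shown because they are largely the same bases read in opposite directions, share 228 bases (chr5:30155003-30155230). Capitals mark GC boxes, 1 in the Hadha window (chr5:30154931-30155230, minus strand) and 4 in the Hadhb window (chr5:30155003-30155302, plus strand).
Hadha: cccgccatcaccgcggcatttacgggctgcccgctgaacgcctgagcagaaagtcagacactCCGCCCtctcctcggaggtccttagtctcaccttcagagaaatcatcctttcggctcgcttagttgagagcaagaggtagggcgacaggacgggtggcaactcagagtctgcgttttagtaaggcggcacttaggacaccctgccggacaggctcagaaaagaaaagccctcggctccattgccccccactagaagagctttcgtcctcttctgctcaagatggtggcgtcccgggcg
Hadhb: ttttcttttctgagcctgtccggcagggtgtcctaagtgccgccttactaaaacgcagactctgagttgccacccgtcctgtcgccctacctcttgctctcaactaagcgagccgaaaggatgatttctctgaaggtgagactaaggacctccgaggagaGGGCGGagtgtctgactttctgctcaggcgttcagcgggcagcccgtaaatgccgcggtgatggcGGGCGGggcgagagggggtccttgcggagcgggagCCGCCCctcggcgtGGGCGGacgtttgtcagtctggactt
For comparison, the window of Acads (chr5:115119297-115119596, minus strand) holds 1 GC box.
Acads: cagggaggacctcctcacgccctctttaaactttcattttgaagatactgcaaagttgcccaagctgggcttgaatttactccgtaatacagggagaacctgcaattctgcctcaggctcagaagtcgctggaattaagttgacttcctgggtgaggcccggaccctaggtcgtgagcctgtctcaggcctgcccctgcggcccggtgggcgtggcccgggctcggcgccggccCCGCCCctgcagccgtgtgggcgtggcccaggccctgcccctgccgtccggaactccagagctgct

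Electron transfer flavoprotein showed subunits of 1 heterodimer on opposite sides of 0. Etfb had 659, 513 and 728 CPM in nano-TiO2 libraries, against 868, 937 and 1105 CPM in sham libraries. None of the nano-TiO2 libraries reached the sham range. Etfb fell by 0.61 on the log2 scale (SE 0.16; adjusted p = 0.0268 by edgeR) and by 0.58 in the series table (adjusted p = 0.0301 by limma), but stood at 0.12 after the correction. The call was lost without sham 1, sham 2, sham 3 or nano-TiO2 1, with adjusted p up to 0.0744 by edgeR. In those fits 2.93% to 8.0% of all genes were lower, against 12.8% with all libraries. Its partner Etfa averaged 376 ± 107 CPM in nano-TiO2 and 274 ± 65.4 CPM in sham libraries (SD, n = 3 each). The log2 fold change of Etfa was 0.46 (adjusted p = 0.185 by edgeR). Etfdh, the membrane oxidoreductase that takes their electrons to ubiquinone, averaged 180.5 ± 46.1 CPM in nano-TiO2 and 119 ± 37.6 CPM in sham libraries (SD, n = 3 each), at 0.60 (adjusted p = 0.104 by edgeR).

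Within libraries, Etfa over Etfb by TPM was 0.372, 0.271 and 0.297 in nano-TiO2 hearts, against 0.141, 0.143 and 0.177 in sham hearts. All nano-TiO2 libraries lay above all sham libraries. The pair was picked after its values were seen and carries no test. Other subunit ratios, Hadhb over Hadha, Idh3a over Idh3g and Ogdh over Dlst, overlapped between groups. The log2 fold changes of Etfa and Etfb differed by 1.07 in the main fit and by 1.06 in the series table, but by 0.09 after the correction. Etfa transcripts have 45.1% GC and Etfb transcripts 57.1%. The difference between Cpt1b and Cpt1a was -0.61 after the same step, against -1.04 before it.

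The remaining beta-oxidation genes lay between -0.42 and -0.11. They are Echs1 (the short-chain hydratase), Hadh (hydroxyacyl-CoA dehydrogenase), Acaa2 (the thiolase), Eci1 (an isomerase for unsaturated chains) and Decr1. Acaa2 averaged 672 ± 143 CPM in nano-TiO2 and 898 ± 167 CPM in sham libraries (SD, n = 3 each) without overlap, at -0.42 (adjusted p = 0.139 by edgeR). Decr1 averaged 60.1 ± 10.1 CPM in nano-TiO2 and 64.7 ± 13.0 CPM in sham libraries (SD, n = 3 each). Eci1, short and GC-rich, stood at -0.12, and at 0.36 after the correction.

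In the TCA cycle 2 of 13 genes fell and none rose by edgeR, with none higher at an unadjusted p under 0.05 and none by DESeq2; of all genes, 12.8% were lower, so 2 of 13 is near that background. Of the 13, 11 were below 0. In 8 of 13 every nano-TiO2 library lay below every sham library, a larger share than the 22.4% of all genes. The median log2 fold change was -0.24. Cs, citrate synthase, had 586, 519 and 537 CPM in nano-TiO2 libraries, against 632, 640.5 and 698 CPM in sham libraries. The groups did not overlap, and the log2 fold change was -0.26 ± 0.11 (SE; adjusted p = 0.117 by edgeR). After the correction it was -0.51 (adjusted p = 0.0571 by edgeR).

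Of the isocitrate dehydrogenases, the NADP-linked Idh2 fell. It had 2573, 2206 and 2467 CPM in nano-TiO2 libraries, against 3044, 3167 and 3457 CPM in sham libraries. In CPM the groups were separate, and Idh2 fell by 0.42 on the log2 scale (SE 0.13, adjusted p = 0.0396 by edgeR). By TPM they were separate the other way, at 1879, 2008 and 1858 in nano-TiO2 libraries, against 1716, 1356 and 1777 in sham libraries. With log2(TPM + 1) the log2 fold change was 0.25, or -0.22 relative to the median gene. The series table gave -0.37 (adjusted p = 0.0593 by limma), and the corrected value was -0.04. All 6 fits without 1 library lost the call (adjusted p up to 0.113 by edgeR). In those fits 2.93% to 14.6% of all genes were lower, against 12.8% with all libraries. Idh3a, the catalytic subunit of the NAD-linked enzyme, had 639, 324 and 464 CPM in nano-TiO2 libraries, against 331, 342 and 635 CPM in sham libraries. Its groups overlapped (log2 fold change 0.13 ± 0.31, SE), and a retained-intron transcript took 36.2% of its reads. The partner subunit Idh3g averaged 282 ± 51.1 CPM in nano-TiO2 and 333 ± 30.3 CPM in sham libraries (SD, n = 3 each).

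Downstream, Ogdh, the entry subunit of the oxoglutarate dehydrogenase complex, had 567, 522 and 469.5 CPM in nano-TiO2 libraries, against 655, 597 and 758 CPM in sham libraries. No library of 1 group entered the range of the other. Its log2 fold change of -0.37 ± 0.14 (SE) missed the threshold by edgeR (adjusted p = 0.0752) and passed it by DESeq2 (adjusted p = 0.0394); it was -0.56 after the correction. Dlst, the core subunit of the same complex, averaged 202 ± 17.8 CPM in nano-TiO2 and 244 ± 19.9 CPM in sham libraries (SD, n = 3 each), also without overlap, at -0.27, and at -0.49 after the correction. Ogdh, Dlst and Cs thus lay farther below 0 once corrected, and Idh2 and Mdh2 nearer to it.

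Succinyl-CoA ligase joins the alpha subunit Suclg1 to an ATP-specific (Sucla2) or a GTP-specific (Suclg2) beta subunit. Suclg1 averaged 328 ± 44.5 CPM in nano-TiO2 and 404 ± 44.2 CPM in sham libraries, and Suclg2 118 ± 21.6 CPM in nano-TiO2 and 92.5 ± 11.7 CPM in sham libraries (SD, n = 3 each). Sucla2 averaged 233 CPM in both groups, with an SD of 80.6 in nano-TiO2 and 121 in sham libraries. Suclg2 over Suclg1 by TPM was 0.203, 0.181 and 0.174 in nano-TiO2 hearts, against 0.113, 0.116 and 0.121 in sham hearts. The ratio was higher in every nano-TiO2 library, by a log2 difference of 0.65 in the main fit and 0.14 after the correction, while Sucla2 over Suclg1 overlapped between groups. Fh1, fumarase, averaged 264 ± 55.5 CPM in nano-TiO2 and 301 ± 86.3 CPM in sham libraries (SD, n = 3 each).

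Mdh2, the mitochondrial malate dehydrogenase that closes the cycle, had 1485, 1325 and 1501 CPM in nano-TiO2 libraries, against 1794, 1819.9 and 1991 CPM in sham libraries. The groups were separate in CPM. By TPM they were separate the other way, at 1362, 1519 and 1432 in nano-TiO2 libraries, against 1274, 982 and 1278 in sham libraries. With log2(TPM + 1) the log2 fold change was 0.30, or -0.18 relative to the median gene. Mdh2 fell by 0.38 on the log2 scale in the main fit (SE 0.12, adjusted p = 0.0455 by edgeR). But the series table gave adjusted p = 0.067 by limma, and the corrected value was 0.07. Each fit without 1 library lost the call (adjusted p up to 0.145 by edgeR), with 2.93% to 14.6% of all genes lower in those fits. Its promoter window (chr5:135778399-135778698, plus strand) is shown because it alone among the 42 windows held the letters TCTCGCGAGA, and held them 3 times; 0.466% of all windows hold them. Capitals mark these and 2 GC boxes. This motif too was searched after the sequences had been seen.
Mdh2: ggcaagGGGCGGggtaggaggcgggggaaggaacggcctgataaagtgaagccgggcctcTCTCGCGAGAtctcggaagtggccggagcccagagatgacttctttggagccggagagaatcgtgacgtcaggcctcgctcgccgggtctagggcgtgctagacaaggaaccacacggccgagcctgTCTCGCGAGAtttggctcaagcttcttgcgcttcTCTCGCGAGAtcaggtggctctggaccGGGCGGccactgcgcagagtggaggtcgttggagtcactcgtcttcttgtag

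For 2 TCA genes the deposited sources disagreed on the level. Over the 39 genes the reads of the series table were a median of 0.974 times those of Salmon, and 37 lay within 0.75 to 1.3. Mdh1, the cytosolic malate dehydrogenase of the malate-aspartate shuttle, was at 9.45 and Idh3b, a regulatory subunit of NAD-linked isocitrate dehydrogenase, at 2.05. Such gaps are found in few genes, with 1.51% of all tested genes at 9 or more and 4.56% at 2 or more. Salmon assigned 89.9% of Mdh1 reads to a transcript of 549 bases. Mdh1 averaged 188 ± 33.1 CPM by Salmon in nano-TiO2 and 223 ± 59.6 CPM in sham libraries (SD, n = 3 each), at a log2 fold change of -0.24. In the series table Mdh1 averaged 29700.5 ± 6194 scaled reads in nano-TiO2 and 40277 ± 10334 in sham libraries (SD, n = 3 each), at -0.43 (adjusted p = 0.157 by limma). Idh3b stood at -0.20 by Salmon and at -0.00 in the series table (adjusted p = 0.996 by limma), so its direction rests on the source.

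**Figure D4:**
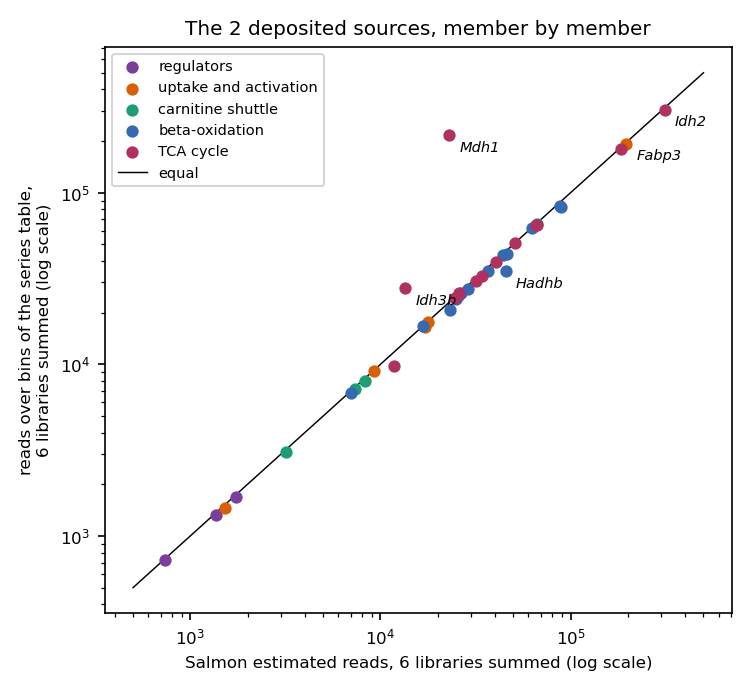
Reads summed over the 6 libraries for each of the 39 genes, as Salmon estimated reads on the horizontal axis and as reads over the bins of the series table on the vertical axis, both on log scales, coloured by role. The line marks equality; Mdh1 lies 9.45 times and Idh3b 2.05 times above it.

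The table as a whole repeated the pattern of directions, since it comes from the same libraries. By limma on log2(value + 1), 2 of 39 genes were higher (Lpl and Cpt1a) and 3 lower (Cpt1b, Acads and Etfb), against 14.8% and 12.6% of 18496 genes. The median was -0.14 over the 39 genes, against -0.04 over all genes.

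Spread between pools of 1 group was shared by most of the 39 genes, and about as wide as in all genes. The median range was 0.45 on the log2 scale in nano-TiO2 and 0.39 in sham libraries, against 0.45 and 0.43 over all genes. Nano-TiO2 2 was the lowest of its group in 34 of the 39 genes (41.9% of all genes tested), and sham 3 was the highest of its group in 34 (39.2% of all genes). Both held together in 31 of 39, against 25.2% of all genes. All 14 beta-oxidation genes and all 5 uptake genes showed it, as did 10 of 13 TCA genes, 2 of 3 regulators and 3 of 8 heart muscle markers. None of the 4 carnitine shuttle genes did; the other exceptions were Ppard, Idh3b, Ogdh and Dlst. In 27 of 39 genes the range within a group was wider than the difference between the group means, as in 60.6% of all genes. The embryonic globin Hbb-y, high early in gestation, was at 8416 TPM in nano-TiO2 2, against 127 and 90.2 TPM in the other nano-TiO2 libraries, and at 7078, 2831 and 165 TPM in the sham libraries. Its part in the spread was not tested.

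**Figure D5:**
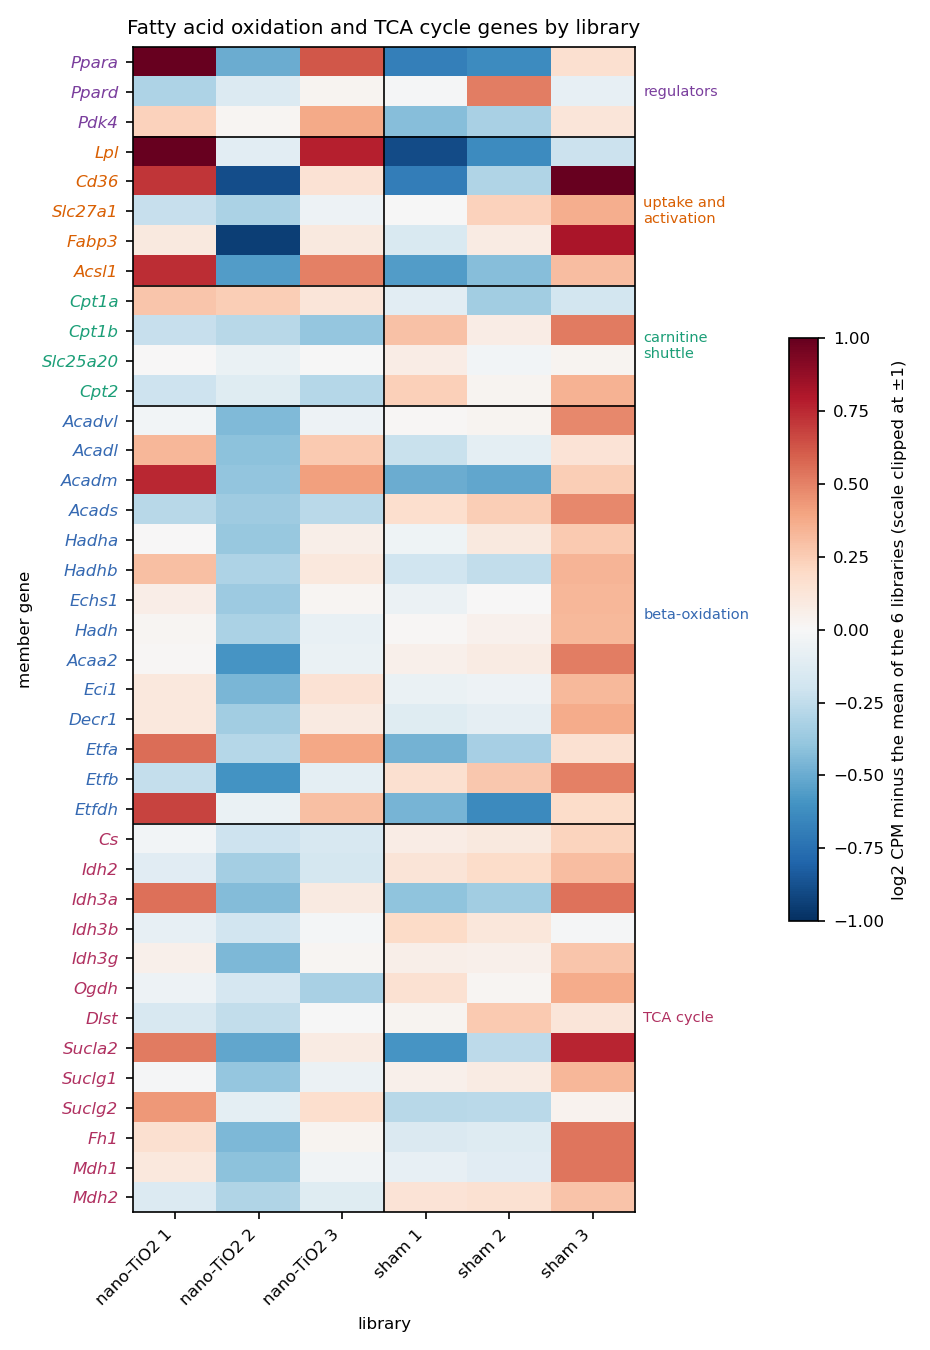
Log2 CPM of each gene in each library minus its mean over the 6 libraries, with nano-TiO2 libraries on the left and sham libraries on the right, and genes in rows by role. Nano-TiO2 2 is blue and sham 3 red in most rows of uptake, beta-oxidation and TCA genes. In the carnitine shuttle Cpt1b and Cpt2 have these colours too, but there nano-TiO2 3 and not nano-TiO2 2 is the lowest of its group.

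Set against the heart muscle markers, the sums of the roles overlapped between groups. Beta-oxidation genes summed to 12.0%, 11.2% and 11.2% of heart muscle marker TPM in nano-TiO2 libraries, against 10.7%, 9.46% and 12.3% in sham libraries. TCA genes summed to 15.7%, 17.2% and 14.4% in nano-TiO2 libraries, against 15.8%, 13.7% and 16.8% in sham libraries. That sum holds Mdh1 and Idh3b at their Salmon levels, though the series table had 9.45 and 2.05 times as many reads for them. Uptake genes summed to 8.50%, 5.65% and 8.11% in nano-TiO2 libraries, against 6.53%, 6.43% and 11.1% in sham libraries. For carnitine shuttle genes the sums were 0.818%, 1.10% and 0.730% in nano-TiO2 libraries, against 1.05%, 0.771% and 1.03% in sham libraries. No role separated the groups on this scale except the regulators, at 0.0428% to 0.0539% in nano-TiO2 and 0.0243% to 0.0356% in sham libraries. Of the 8 markers themselves, 3 were lower by edgeR on the TMM scale, with a median log2 fold change of -0.41, while their TPM sum, the denominator here, was higher in every nano-TiO2 library. Their part in the results was not tested.

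By Salmon TPM, levels per length ran from Ppard to Fabp3; Mdh1 and Idh3b cannot be placed in this order, since the 2 deposited sources disagreed on their reads. After Fabp3 came Idh2 at 1915 ± 81.5 TPM in nano-TiO2 and 1616 ± 228 TPM in sham libraries, Mdh2 at 1438 ± 78.7 TPM in nano-TiO2 and 1178 ± 170.0 TPM in sham libraries, and Etfb at 1096 ± 86.9 TPM in nano-TiO2 and 1071 ± 186 TPM in sham libraries (SD, n = 3 each). The ranges of Fabp3 and Idh2 overlapped in both groups, and those of Etfb and Mdh2 overlapped in sham libraries. Compared within each library, Mdh2 lay above Etfb in every one, most narrowly in sham 3 (1278 against 1255 TPM). Fabp3 lay above Idh2 in every library except nano-TiO2 2 (1750 against 2008 TPM). The lowest was Ppard, at 2.64 ± 0.41 TPM in nano-TiO2 and 2.02 ± 0.27 TPM in sham libraries (SD, n = 3 each).

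The wider pathway was read from 65 further genes, of which 63 were tested, and 9 were higher and 9 lower. Of all genes 15.5% were higher and 12.8% lower, so both counts are near the background. In transcriptional control 6 of 15 were higher and 1 was lower. Ncor1, a corepressor of nuclear receptors, had 55.5, 38.6 and 59.2 CPM in nano-TiO2 libraries, against 19.0, 20.1 and 19.9 CPM in sham libraries (log2 fold change 1.38, adjusted p = 0.0063 by edgeR). Med1, a Mediator subunit that binds nuclear receptors, rose by 1.07, Nrip1, a corepressor of oxidative genes, by 1.28, and Esrrg, an estrogen-related receptor that drives oxidative genes in heart, by 1.38. Among other fatty acid genes 1 of 25 was higher and 6 were lower: Acsl4 rose by 0.87, while Fabp5 fell by 0.67, Acacb, which makes the malonyl-CoA that inhibits Cpt1, by 0.48, and Pnpla2, the triglyceride lipase of lipid droplets, by 0.54. Of 19 other TCA and pyruvate dehydrogenase genes 2 were higher and 2 lower, with Pdp2 and Pdk1 at 0.98 and 0.88 and Pcx and Pdk2 at -0.68 and -0.53. None of 4 ketone body genes passed by edgeR, and none did at an unadjusted p under 0.05; by DESeq2 none passed and 1 did at an unadjusted p under 0.05. After the correction, 2 of the 18 calls held, Ncor1 at 0.96 (adjusted p = 0.0249 by edgeR) and Acacb at -0.73 (adjusted p = 0.045 by edgeR); of all genes, 1.46% were then higher and 1.69% lower.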

How the data were processed

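RNA of 6 pooled fetal heart samples was analysed, 3 per group by title, with 3 µg of RNA fragmented per sample per the labels' protocols. Per the file headers, Salmon gave each transcript an estimated count, left unscaled, and a TPM value that divides by effective length. The series table holds a signal per bin along each gene, reads that the authors divided by a size factor of each library; 100% of its values gave whole reads within 0.001. Per the submitters' processing notes, the tools were Salmon 1.5.2, HISAT2 2.2.1 and DESeq2 1.34.0, and the build was GRCm39; their roles, and how strand was treated, are not stated there.

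GENCODE M21 supplied symbols, transcript lengths and base composition; since it is on GRCm38, coordinates are given for RefSeq promoter windows alone. It matched 115685 of 116747 transcripts; the 1062 others held at most 0.77% of a library's reads. Counts were summed per gene, rounded and tested with edgeR 4.0.16 (quasi-likelihood, robust, TMM, filterByExpr, group only), with Benjamini-Hochberg adjustment over all genes tested and a threshold of 0.05. Table values were summed over each gene's bins and tested with limma 3.58.1 on log2(value + 1) for sums averaging at least 10; such fold changes understate low genes. The dependence of reads on transcript length and GC was fitted per library with mgcv 1.9.3 and entered edgeR as offsets. DESeq2 1.42.0, other scalings, filters, log2(TPM + 1) and log2(TPM + 0.1), protein-coding transcripts only and leaving out libraries were alternatives. The tests were tested on simulated counts. Total estimated reads of 12881945 to 22720009 and a biological coefficient of variation of 23.9% set the precision.

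The 39 genes and all lists were chosen with earlier results of these data known. All 39 are named, with values per library for called genes and for Ppara, Cd36, Cpt1a, Cpt1b, Acadm, Hadha, Cs, Idh3a, Ogdh and Mdh2; of other pathway genes, up to 4 called per role by smallest p are named. Subunit ratios other than Cpt1, Acacb in the corrected fit and the Hbb-y values were chosen after values were seen.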

Additional observations from a re-analysis of the deposited data

How the results depend on the processing

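Of the 39 genes, 6 were lower and 1 higher in the main fit, and both counts moved with the processing. Fold changes here are log2 and relative to the median gene, which shifted by 0.41 with library totals only, 0.47 with log2(TPM + 1) and 0.56 with log2(TPM + 0.1). Counts lower and higher were 0 and 9 with library totals only (0.359% and 30.7% of all genes). They were 0 and 11 with log2(TPM + 1) (0.226% and 35.3% of all genes) and 0 and 11 with log2(TPM + 0.1) (0.268% and 34.9%). After the length and GC correction they were 1 and 0 (1.69% and 1.46%). With series-table reads in edgeR they were 3 and 2 (11.2% and 15.4%). Without sham 2 and nano-TiO2 3 together they were 0 and 0 (3 and 1 at an unadjusted p under 0.05), in the series table as well. No gene of any kind passed there, with 0 of 14021 genes by Salmon and 0 of 18416 in the series table, so the 39 genes could not differ from 0. The higher count was 2 by DESeq2 (17.8% of all genes), 2 with a stricter filter (17.1%) and 0 with no filter (8.93%). Without 1 library the lower count ranged from 1 to 4 and the higher from 0 to 4. The shares of all genes ranged from 2.93% to 14.6% lower and from 5.97% to 15.3% higher. In the series table these counts ranged from 0 to 2 and from 0 to 7. There the shares of all genes ranged from 4.02% to 13.5% and from 6.76% to 15.1%. The replicate numbers do not pair the samples (correlations of deviations -0.39, 0.02 and -0.08); with the number as a block 3 genes were lower and 1 higher (5.71% and 9.06% of all genes), and the Cpt1b share kept its direction. Other settings left the counts within 1.5 times.

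Directions reversed as follows, and the cause was not tested. After the length and GC correction: regulators' median -0.068, uptake median 0.048, Pdk4 -0.18, Fabp3 0.13, Acadl -0.22, Hadhb -0.32, Eci1 0.37, Etfb 0.13, Idh3a -0.28, Idh3g 0.0087, Sucla2 -0.34, Suclg2 -0.16, Mdh1 0.24 and Mdh2 0.086. With log2(TPM + 1): uptake median 0.10, beta-oxidation median 0.026, Cd36 0.10, Slc25a20 0.12, Eci1 0.056 and Decr1 0.057; with log2(TPM + 0.1): uptake median 0.028, Cd36 0.028 and Slc25a20 0.042. Sucla2 was -0.017 with library totals and -0.056 with no filter. Without sham 2 and nano-TiO2 3: Hadhb -0.081, Idh3a -0.016 and Sucla2 -0.16. With table reads: Slc25a20 0.027 and Idh3b 0.051. Without 1 library, ranges crossing 0 were -0.48 to 0.59 for Cd36, -0.19 to 0.056 for Decr1, -0.23 to 0.055 for Eci1, -0.31 to 0.054 for Fh1, -0.074 to 0.26 for Hadhb, -0.14 to 0.48 for Idh3a, -0.27 to 0.49 for Sucla2 and -0.39 to 0.59 for the uptake median. Relative to the median gene, the median of all 39 genes kept its direction in every setting tried. The Cpt1b share did too, but as a share within a library it cannot change with library scaling. With 3 pools per group, differences smaller than the spread between pools could not be detected.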
